A study of Mus musculus with 2 samples.

Results

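The 10 genes described here encode receptors for extracellular nucleotides and the enzymes that degrade extracellular ATP. They were chosen as *P2rx4*, *P2rx7*, *P2ry1*, *P2ry2*, *P2ry6*, *P2ry12*, *P2ry13*, *P2ry14*, *Entpd1* and *Nt5e*, out of 36998 gene names on the array, and every non-control probe carrying 1 of these symbols was taken. The study asked how the loss of connexin 30 (Cx30), an astrocyte gap junction protein encoded by *Gjb6*, changes the striatal response to MPTP, a toxin that damages dopaminergic neurons. Striatal RNA was hybridised to 2 single-colour arrays, 1 for WT and 1 for Cx30 KO mice, and the pair shared a slide. The WT array holds the pooled striata of 2 male mice whose strain is given as C57BL/6J, and the Cx30 KO array those of 2 male mice of the strain Cx30-LacZ. All animals were 8 weeks old. MPTP was given intraperitoneally at 20 mg/kg, 4 times with 2 h between injections, and tissue was taken on day 1 after the last of them. *Gjb6* was deleted in the germline, so that every cell lacked it from conception, and both groups had received MPTP. The KO line was bred from heterozygotes and the methods name non-mutant offspring as WT, whereas the labels give different strains, so genotype and strain background cannot be told apart. With 1 array of pooled RNA for each genotype there is no spread between mice, and no test and no p-value is given.

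ATP that leaves a damaged or active cell opens the P2X receptors, which are cation channels, while ATP, its breakdown product ADP and the uridine nucleotides UTP and UDP activate G protein-coupled P2Y receptors. Ectonucleotidases on the cell surface then cut ATP and ADP to AMP and AMP to adenosine, which has receptors of its own. In the brain, microglia carry many of these receptors and use P2ry12 to steer their processes towards sites of ATP release.

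*Gjb6*, the deleted gene, was examined first. Its brightest probe (NM_001010937) read 1788 in the WT pool and 111 in the Cx30 KO pool, in units of processed signal (log2 ratio −3.94). The arrays therefore carry their genotypes in the direction of the labels. All 9 striatal neuron markers were detected in both pools, and 5 of 6 markers of cortical neurons, given further on, were higher in the Cx30 KO pool. Among the striatal markers was *Penk*, an enkephalin precursor, with 163260 in WT and 169780 in Cx30 KO mice.

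The 3 genes lower in Cx30 KO mice are shown by their sequences. For each, the 30 bases from position 16 to position 45 of the 60-base probe are given, as the scanner files write them, because the value of each gene rests on this probe alone. *P2ry2* had a further probe close by, which is shown for comparison.
P2ry12 probe (NM_027571): tagaggtttaaaaggcgaatcttaccataa
P2ry13 probe (NM_028808): cttgacctttacaaactccatttaatatgg
P2ry2 probe (NM_008773): atcctatttcaatttaaaattaccaataca
P2ry2 further probe (L14751): gccactttctctttattcttccaagcatga
On mm9, the build of the files, the *P2ry12* probe lies at chr3:59020598-59020657 and the *P2ry13* probe at chr3:59012054-59012113, 8.48 kb away, both on the minus strand. The *P2ry2* probe of NM_008773 lies at chr7:108145553-108145612 on the minus strand, and the further probe 134 bases from it.

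The 250 bases before the transcription start of the same 3 genes, from RefSeq on GRCm38.p6 and in the direction of the gene, are given because these genes were lower together. Capitals mark GGAAGT, a core sequence bound by ETS factors such as the myeloid factor PU.1, searched on both strands as the only motif.
P2ry12, chr3:59262986-59263235, minus strand: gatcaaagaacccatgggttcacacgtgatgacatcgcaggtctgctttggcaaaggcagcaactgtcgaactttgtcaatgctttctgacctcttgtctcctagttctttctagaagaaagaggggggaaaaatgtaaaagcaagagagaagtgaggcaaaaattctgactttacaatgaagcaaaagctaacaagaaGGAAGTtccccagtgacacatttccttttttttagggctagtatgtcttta
P2ry13, chr3:59210883-59211132, minus strand: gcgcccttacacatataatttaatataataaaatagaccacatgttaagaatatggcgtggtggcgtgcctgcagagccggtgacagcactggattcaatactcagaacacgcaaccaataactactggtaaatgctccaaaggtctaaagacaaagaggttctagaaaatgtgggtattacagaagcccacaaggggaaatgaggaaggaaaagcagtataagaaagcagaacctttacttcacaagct
P2ry2, chr7:101012054-101012303, minus strand: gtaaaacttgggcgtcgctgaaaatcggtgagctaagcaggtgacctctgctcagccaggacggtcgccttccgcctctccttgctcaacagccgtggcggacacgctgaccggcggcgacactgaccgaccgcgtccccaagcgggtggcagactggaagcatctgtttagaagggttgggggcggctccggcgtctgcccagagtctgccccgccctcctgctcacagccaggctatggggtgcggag
For each gene the first listed window is shown. The *P2ry12* window held GGAAGT once, starting 51 bases before the transcription start, and the windows shown for *P2ry13* and *P2ry2* did not hold these letters. Of all 32851 RefSeq windows of this length, 6485 (19.7%) held the letters on either strand. Among the 10 genes, 9 had windows, 15 in all, and the letters stood in 2 of these, the *P2ry12* window shown being 1 of them. The windows of *P2ry12* and *P2ry13* each had a GC content of 41.6%, and the *P2ry2* window 65.2%. *P2ry6* had no entry.

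*P2ry12*, *P2ry13* and *P2ry2* fell in Cx30 KO mice and none of the 10 genes rose. A gene was called lower when its ratio was at most 0.66 and its Z-score at most −2.0, and higher when the ratio was at least 1.5 and the Z-score at least 2.0. These limits are the study's, and the Z-score is the distance of a gene's log2 ratio from the mean of the 1000 probes nearest in signal, in standard deviations. By the same limits 746 of 22008 genes (3.39%) were lower and 522 (2.37%) were higher. Of the 10 genes, 8 had a negative log2 ratio, and their median was −0.38, against a median of 0.03 over all genes, of which 45.4% were negative. With the mean of each gene's detected probes in place of the brightest, the median of the 10 was −0.18. These counts describe the 10 genes beside the whole array and are not a test.

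**Figure D1:**
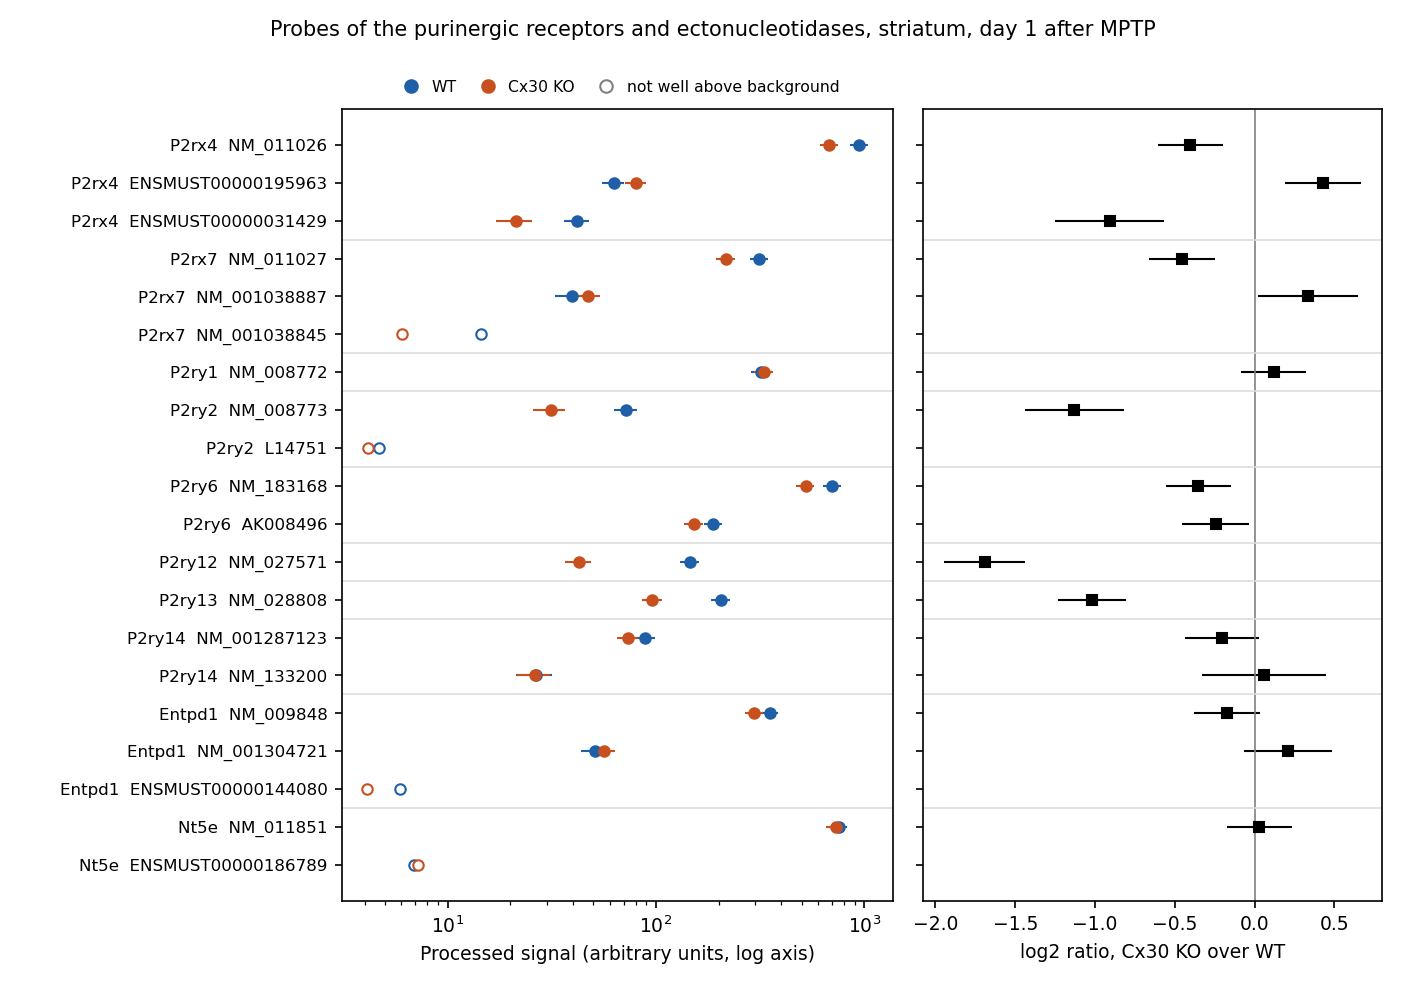
Processed signal of each of the 20 probes in WT (blue) and Cx30 KO (orange) mice on a log axis (left), and log2 ratio of Cx30 KO over WT (right); bars are the scanner software's error for a spot and open circles are probes not well above background, which have no ratio. The probes of *P2ry12*, *P2ry13* and *P2ry2* (NM_008773) lie at −1.69, −1.02 and −1.13, and those of *P2rx4* span from −0.91 to 0.43.

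The 10 genes have 20 probes, of which 16 were well above background on both arrays and 4 on neither. Among the 16, 10 had a negative and 6 a positive log2 ratio. The errors given with a signal or a log2 ratio are those the scanner software assigns to a spot, and they hold nothing of the spread between mice. For scale, the log2 ratios of different probes of a gene had an SD of 0.26 over the 7147 genes with several probes well above background on both arrays.

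The ATP-gated channels had a negative log2 ratio at their brightest probes and did not meet the criteria. *P2rx4*, a channel of microglia and other cells that is best known from pain signalling, gave 946 ± 94.7 in WT and 680 ± 68.1 in Cx30 KO mice at the probe of NM_011026, a log2 ratio of −0.40 ± 0.20. The other *P2rx4* probes went opposite ways. The probe of ENSMUST00000195963 gave 62.7 ± 7.75 in WT and 80.3 ± 8.98 in Cx30 KO mice (log2 ratio 0.43). That of ENSMUST00000031429 gave 42.0 ± 5.80 in WT and 21.3 ± 4.10 in Cx30 KO mice (log2 ratio −0.91 ± 0.34). The log2 ratios of the *P2rx4* probes thus spanned 1.34, more than the distance of any of them from 0.

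*P2rx7*, the ATP-gated channel that triggers interleukin-1β release from myeloid cells, gave 313 ± 31.7 in WT and 217 ± 22.1 in Cx30 KO mice at NM_011027, a log2 ratio of −0.46 ± 0.21. At NM_001038887 the same gene gave 39.5 ± 6.55 in WT and 47.4 ± 6.64 in Cx30 KO mice, a log2 ratio of 0.33. These probes of *P2rx7* disagreed in sign by 0.79, and the remaining probe, of NM_001038845, was not well above background. The Z-scores of the brightest probes were −1.32 for *P2rx4* and −1.30 for *P2rx7*. *P2rx4* and *P2rx7* are neighbours on chromosome 5, with 44.7 kb between their brightest probes.

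Among the P2Y receptors that act mainly through Gq and calcium release, 1 of 3 met the criteria. *P2ry2*, a receptor for ATP and UTP, gave 72.0 ± 8.80 in WT and 31.3 ± 5.48 in Cx30 KO mice at NM_008773, and was 2.19-fold lower (log2 ratio −1.13 ± 0.31). The errors of the 2 signals did not overlap, yet the Z-score of *P2ry2* was −2.04, just past the limit. The probe of L14751, 134 bases away, gave 4.70 in WT and 4.15 in Cx30 KO mice and was not well above background in either, so it gives no second reading of *P2ry2*.

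*P2ry6*, the UDP receptor that drives phagocytosis by microglia, was the only gene of the 5 with several detected probes whose probes had the same sign. It gave 702 ± 70.4 in WT and 523 ± 52.5 in Cx30 KO mice at NM_183168, a log2 ratio of −0.35. At AK008496 it gave 189 ± 19.5 in WT and 152 ± 15.7 in Cx30 KO mice, a log2 ratio of −0.25. Neither probe passed the ratio limit, and the Z-scores were −1.01 and −0.72. *P2ry6* and *P2ry2* lie 59.3 kb apart on chromosome 7 by their brightest probes.

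*P2ry1*, an ADP receptor of neurons, astrocytes and platelets, gave 320 ± 32.4 in WT and 330 ± 33.3 in Cx30 KO mice. Its log2 ratio of 0.12 ± 0.21 lay within 1 scanner error of 0, and its Z-score was 0.34.

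Of the P2Y receptors that act through Gi, 2 of 3 met the criteria, and the median log2 ratio of the 3 was −1.02. *P2ry12*, the ADP receptor that serves as a marker of resting microglia, gave 145 ± 15.3 in WT and 42.8 ± 6.02 in Cx30 KO mice. It was 3.23-fold lower, with a log2 ratio of −1.69 ± 0.25, which is 6.67 times its scanner error, and a Z-score of −3.94. None of the other genes of the set had a log2 ratio as low. *P2ry13*, a further ADP receptor of microglia, gave 205 ± 21.0 in WT and 96.2 ± 10.5 in Cx30 KO mice, and was 2.03-fold lower (log2 ratio −1.02 ± 0.22, Z-score −2.78). For both genes the signals of the pools lay far outside each other's scanner errors, and each was read by a single probe.

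*P2ry14*, the receptor for UDP-glucose, did not meet the criteria. It gave 88.9 ± 10.01 in WT and 73.4 ± 8.41 in Cx30 KO mice at NM_001287123, a log2 ratio of −0.20 ± 0.23. At NM_133200 it gave 26.6 ± 5.29 and 26.3 ± 4.83, a log2 ratio of 0.06. The errors overlapped at both probes. *P2ry14*, *P2ry13* and *P2ry12* form a cluster on chromosome 3, in which the brightest *P2ry14* probe is 93.4 kb from that of *P2ry13* and 102 kb from that of *P2ry12*. *P2ry1* is on the same chromosome, 1792 kb from *P2ry12*.

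At their brightest probes, both ectonucleotidases lay within 1 scanner error of 0. *Entpd1* encodes CD39, which cuts ATP and ADP to AMP, and gave 351 ± 35.4 in WT and 296 ± 29.8 in Cx30 KO mice at NM_009848 (log2 ratio −0.17 ± 0.21). At NM_001304721 it gave 51.1 ± 7.21 in WT and 56.3 ± 7.24 in Cx30 KO mice (log2 ratio 0.21), and its remaining probe was not well above background. The sign of *Entpd1* thus depended on the probe. *Nt5e* encodes CD73, which cuts AMP to adenosine, and gave 754 ± 75.6 in WT and 732 ± 73.4 in Cx30 KO mice (log2 ratio 0.03 ± 0.20), with a further probe not well above background. Z-scores were −0.56 for *Entpd1* and 0.09 for *Nt5e*.

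**Figure D2:**
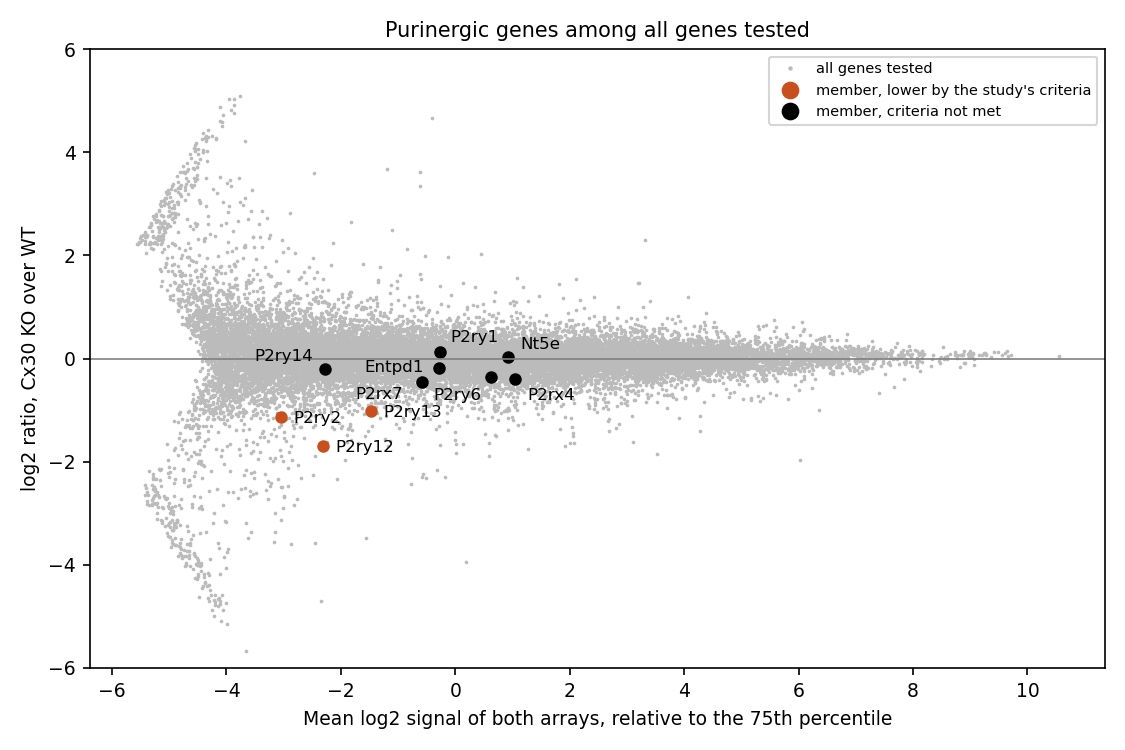
Log2 ratio of Cx30 KO over WT against the mean log2 signal of both arrays, relative to each array's 75th percentile, for the 22008 genes tested (grey) and the 10 purinergic genes (orange where the criteria were met, black where they were not). *P2ry12* (−1.69), *P2ry13* (−1.02) and *P2ry2* (−1.13) lie below most genes of like signal, and the spread of all genes widens towards low signals.

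Across the 10 genes, 4 had a log2 ratio more than 2 scanner errors from 0, namely *P2ry12*, *P2ry13*, *P2ry2* and *P2rx7*, and 4 lay within 1 scanner error. Of the 5 genes with several detected probes, 4 had probes of opposite sign. By the ratio limit alone, the same count of 3 was lower and 0 were higher, against 6.21% and 7.22% of all genes. The call of *P2ry12* was met under all 11 alternative settings, whereas 1 gene of the 10 was lower when all probes served as the reference of the Z-score (*P2ry12*, Z-score −2.86, against −1.92 for *P2ry2* and −1.74 for *P2ry13*). With the background modelled by normexp, *P2ry12*, *P2ry13* and *P2ry2* had log2 ratios of −0.83, −0.70 and −0.43, and *P2ry2* was no longer called lower. Among all genes, 2.07% were lower and 2.28% higher with all probes as the reference, 1.94% and 1.54% with ratio limits of 2 and 0.5, and 2.47% and 1.61% among the 20310 genes well above background on both arrays.

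**Figure D3:**
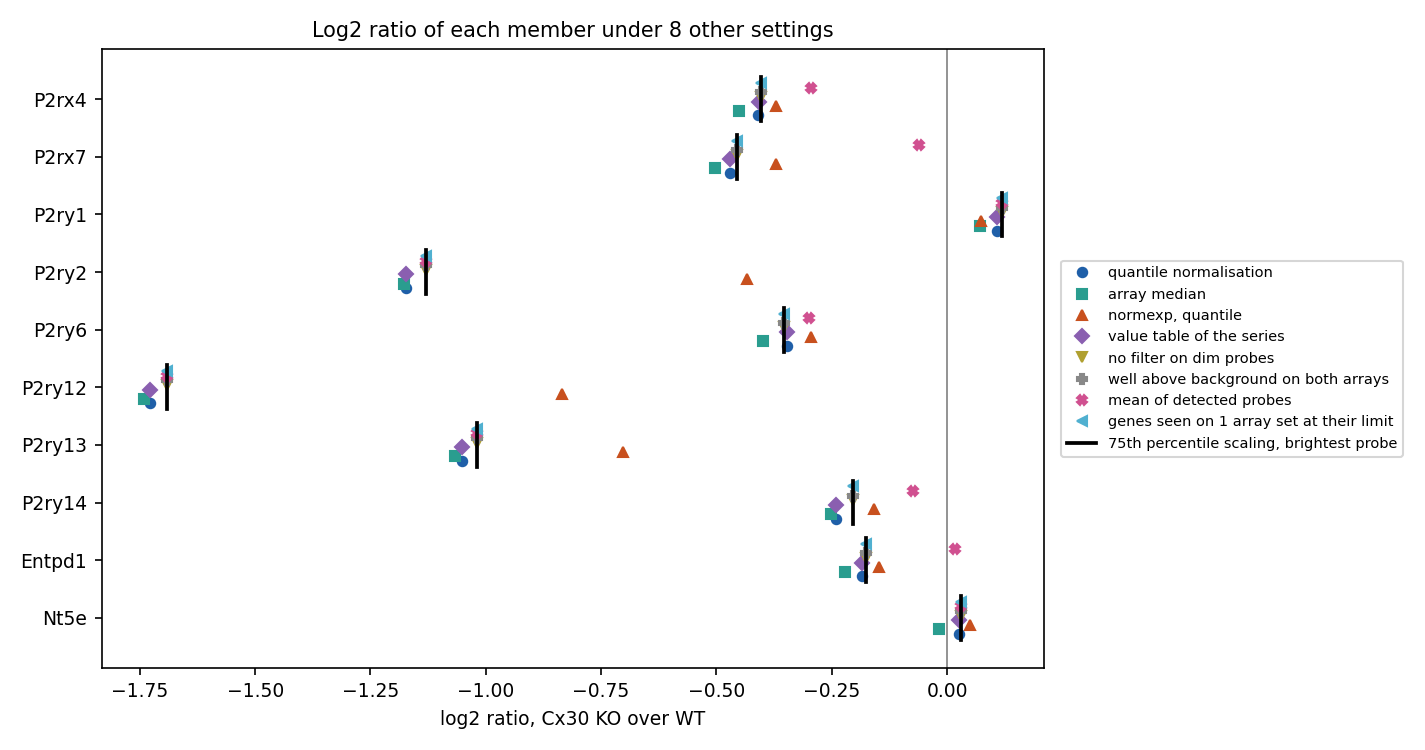
Log2 ratio of Cx30 KO over WT of each gene under the reported setting (black bar) and 8 other settings (symbols). *P2ry12*, *P2ry13* and *P2ry2* are negative under each of them and move to −0.83, −0.70 and −0.43 with normexp, whereas *Entpd1* and *Nt5e* change sign.

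Of 33 further genes for purinergic receptors, nucleotide and adenosine metabolism and ATP release, 25 were detected, 14 with a negative and 11 with a positive log2 ratio, and the median was −0.01. *Enpp2* alone was lower by the criteria and none was higher, against 3.39% and 2.37% of all genes, so that this count is near the background. *Enpp2* encodes autotaxin, a phosphodiesterase that is best known for making lysophosphatidic acid and is rich in oligodendrocytes and choroid plexus. It fell from 5389 ± 539 in WT to 2853 ± 285 in Cx30 KO mice at its brightest probe (log2 ratio −0.85, Z-score −3.11). Its dimmer probes had log2 ratios of 0.28 and −0.38, and *Enpp2* was not called with the mean of its probes, with the Z-score over all probes or with ratio limits of 2 and 0.5.

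None of the other P2X receptors met the criteria. The 5 of them had a median log2 ratio of −0.01, from −0.03 for *P2rx3* to 0.93 for *P2rx6*, which was well above background in Cx30 KO mice only and at least 1.23-fold higher. Such a bound takes for the dim pool the higher of its own signal and the lowest signal counted as well above background there. None of the 3 other P2Y receptors, *P2ry4*, *P2ry10* and *P2ry10b*, was well above background in either pool. Beside *Enpp2*, the detected ectonucleotidases ranged up to 0.23 for *Alpl*, the tissue-nonspecific alkaline phosphatase, and *Entpd8* and *Enpp3* were not well above background.

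The adenosine receptors had a median log2 ratio of −0.31 and none met the criteria. *Adora3*, the Gi-coupled receptor present on mast cells and microglia, gave 131 ± 13.6 in WT and 75.4 ± 8.28 in Cx30 KO mice (log2 ratio −0.72 ± 0.22). Its ratio of 0.606 was past the limit and its Z-score of −1.77 was not. *Adora2a*, the receptor of striatopallidal neurons, gave 17938 in WT and 13909 in Cx30 KO mice (log2 ratio −0.30, Z-score −1.45). *Adora1*, a widespread inhibitory receptor, gave 7881 and 8281 at its brightest probe (log2 ratio 0.14). A dimmer *Adora1* probe had 0.22, and another, well above background in WT only, had −1.22 (at least 1.71-fold lower in Cx30 KO mice). *Adora2b* gave 52.0 and 39.6 (log2 ratio −0.32).

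None of the genes that clear adenosine or release ATP met the criteria. The 6 detected genes of adenosine transport and clearance had a median log2 ratio of 0.08, from −0.25 for the plasma membrane transporter *Slc29a4* to 0.19 for adenosine kinase, *Adk*. *Slc28a2* and *Slc28a3* were not well above background. The 5 detected genes of ATP release had a median of 0.15, from −0.20 for the channel *Panx2* to 0.65 for the vesicular nucleotide transporter *Slc17a9*, and *Calhm1* was not well above background. The *Slc17a9* probe with 0.65 was well above background in Cx30 KO mice only (at least 1.56-fold higher), and its other probe had −0.13.

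**Figure D4:**
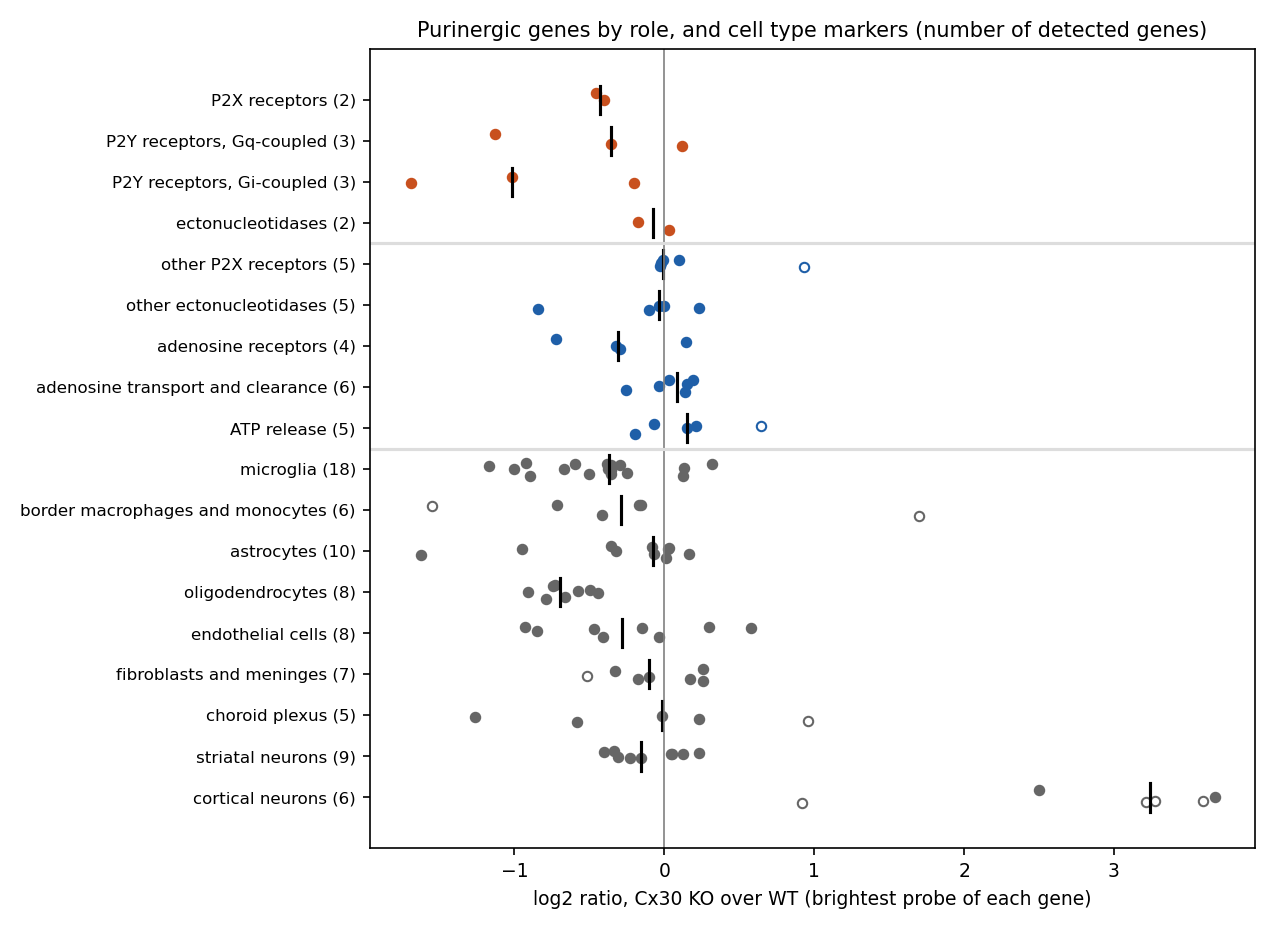
Log2 ratio of Cx30 KO over WT at the brightest probe of each detected gene, for the 10 purinergic genes by role (orange), the other purinergic genes (blue) and cell type markers (grey); black bars are medians and open circles are genes well above background on 1 array only. The Gi-coupled P2Y receptors have a median of −1.02, the microglia markers −0.37, the oligodendrocyte markers −0.70 and the cortical neuron markers 3.24.

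Markers of the cell types that the tissue could hold were read on the same arrays. A summed signal is given for each list as a description, since signals of different probes do not show which gene is more abundant. Sums are of the processed signals as deposited, and their ratios, Cx30 KO over WT, are after scaling. In pooled tissue, fewer cells of a type and less RNA in each cell cannot be told apart. Of 18 microglia markers, all were detected, 15 had a negative log2 ratio and 5 met the criteria for lower expression, with a median of −0.37. The 5 were *Selplg* (−1.17), *Fcrls* (−1.01), *Aif1* (−0.93), *Tmem119* (−0.90) and *Cx3cr1* (−0.67). At the brightest probe of each gene, no microglia marker had a log2 ratio below that of *P2ry12*. By the same reading, only *Selplg* had a log2 ratio below those of *P2ry13* and *P2ry2*. A dimmer probe of *Olfml3* had −2.95 (at least 7.16-fold lower) and was well above background in WT only. *P2ry12* lay 1.32 and *P2ry13* 0.65 below the median of the microglia markers on the log2 scale.

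The summed signal of the microglia markers was 178240 in WT and 166300 in Cx30 KO mice, a ratio of 0.980 after scaling. This sum is mostly the signal of *Itgam* and *Siglech*, whose brightest probes each hold a run of 20 bases of a simple repeat. *Itgam* gave 60045 in WT and 62438 in Cx30 KO mice, and *Siglech* 59850 and 62401, each with a log2 ratio of 0.13, so that they are 2 of the 3 markers of the list with a positive log2 ratio. A *Siglech* probe without a long repeat had 0.42 and another −0.48. Without these genes, a choice made after the values were seen, the sums were 58341 and 41462, the ratio was 0.747 and *Csf1r* gave the brightest probe, while the median was −0.38. The third positive marker, *Olfml3*, had 0.32 at its brightest probe. The part of the microglial content in the values of *P2ry12* and *P2ry13* was not tested.

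Of 8 border macrophage and monocyte markers, 6 were detected, 5 with a negative log2 ratio, and none met the criteria (median −0.29). Their summed signal was 11133 in WT and 9424 in Cx30 KO mice (ratio 0.889 after scaling). Nearly all of it came from *Ly6c2*, a probe with 10427 in WT and 8844 in Cx30 KO mice (log2 ratio −0.17). The sum and its ratio thus describe this probe more than the list. *Ly6c1*, of the endothelial list, gave 11625 and 9971 (log2 ratio −0.15), and the specificity of these probes was not tested. *Ccr2* and *Cd209f* were not well above background in either pool, whereas *Mrc1* was detected in WT only and *Lyve1* in Cx30 KO mice only.

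Of the glial markers, those of oligodendrocytes were lower by the criteria for 5 of 8 genes, among them *Mal*, *Mog*, *Mag* and *Mbp*. All 8 were negative at their brightest probes, and the median was −0.70, or −0.55 with the mean of each gene's detected probes. Dimmer probes of *Mbp* had log2 ratios of 0.12 and −0.72 and a dimmer *Mag* probe had 0.24, while those of *Mog* were negative. Their summed signal was 175760 in WT and 104910 in Cx30 KO mice (ratio 0.627). Of 10 astrocyte markers, *Gfap* (−1.62) and *Aqp4* (−0.95) were lower, 6 were negative and the median was −0.08, with sums of 169050 and 148060 (ratio 0.920) and the brightest probe that of *Aldoc*. *Aqp4* was lower at its brightest probe, while its other detected probes ranged from at least 4.66-fold lower, at a probe not well above background in Cx30 KO mice, to a log2 ratio of 0.02.

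Of 8 endothelial markers, *Flt1* (−0.93) and *Vwf* (−0.85) were lower at their brightest probes and the median was −0.28. Sums were 20387 in WT and 16629 in Cx30 KO mice (ratio 0.857), and the brightest probe was that of *Ly6c1*. The fibroblast and meningeal markers had a median of −0.10 over 7 of 8 detected genes, with sums of 54719 and 46333 (ratio 0.8897), the brightest probe that of *Ptgds* and *Lum* not well above background. The choroid plexus markers had a median of −0.02 over 5 of 6 detected genes, with sums of 1629 and 1369 (ratio 0.883) and the brightest probe that of *Clic6*. Among them *Ttr* was lower (−1.27) and *Kcnj13* was not well above background.

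Of the neuronal markers, 5 of the 6 of the cortex were higher in Cx30 KO mice. For the 9 markers of striatal neurons the median was −0.16 and none met the criteria, with sums of 498350 in WT and 491700 in Cx30 KO mice (ratio 1.04 after scaling). Averaging the probes of each gene gave a median of 0.01, so no direction is given for it, and the brightest probe was that of *Penk*. The 6 cortical neuron markers, dim in WT, were all positive and 5 were higher by the criteria. Their median was 3.24, or 2.14 with genes seen on 1 array set at their limit and 1.26 with normexp. Their signals summed to 175 in WT and 1391 in Cx30 KO mice (ratio 8.36), with the brightest probe in WT that of *Tbr1*. *Neurod2* gave 49.0 in WT and 594 in Cx30 KO mice, and *Neurod6*, *Slc17a7* and *Emx1* were well above background in Cx30 KO mice only. The part of these markers in the values of the purinergic genes was not tested.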

How the data were processed

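The authors extracted the spot signals of both arrays with Agilent Feature Extraction (10.7.1.1 in the file headers, 9.5.1.1 in the submitters' processing notes) and deposited processed signals, which are linear intensities after background subtraction and detrending within each array. The deposited flags for spots well above background, which are neither intensities nor counts, were used as filters. The value table of the series held the quantile-normalised signals (99.9894% of probes within 1% in WT).

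Each array held 62976 spots and 56605 probes. Control spots and outlier spots (48 in WT, 52 in Cx30 KO) were left out, log2 signals were averaged by probe, and the 75th percentile of each array (401 in WT, 382 in Cx30 KO) was subtracted. No probe was saturated, and 32019 probes in WT and 32961 in Cx30 KO were well above background, with lowest such signals of 19.8 and 17.4. A gene was read at its brightest probe that was well above background on at least 1 array. Ratios are Cx30 KO over WT. The study's Z-score counts standard deviations from a mean, for which the 1000 nearest probes were taken here and all probes as an alternative. Older symbols of 1897 probes were updated from RefSeq. Probe positions are on mm9 and promoters on GRCm38.p6, and no position was converted.

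The 10 genes and all lists were chosen with earlier results of these data known. Named are the 10 genes with every probe, *Gjb6*, the further purinergic genes that met the criteria, the adenosine receptors, the largest rise and fall of each role, and of each marker list the genes that met the criteria, the brightest, and those not well above background. *Olfml3* and *Siglech* were named outside this rule after their values were seen, as were the genes next to the receptor clusters. Scripts ran in Python 3.11.15 (numpy 2.4.6, pandas 2.3.3) and R 4.3.3 with limma 3.58.1 for normexp. The calling step was also run on simulated data, with changes placed only in probes brighter in WT than those of *P2ry12* and *P2ry2*. The simulated noise was the same at all signals, so this run does not check calls at dim probes. The alternatives were quantile and median scaling, normexp with an offset of 50, the value table, other filters on dim probes, the mean of a gene's probes, other Z-scores, ratio limits of 2 and 0.5, and bounds for genes seen on 1 array. Arrays of saline-treated mice were not analysed here, list genes outside the naming rule are given only in counts, medians and sums, and a few genes within it are not reported here by name. The number of arrays limits the precision.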

Additional observations from a re-analysis of the deposited data

How the results depend on the processing

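No paired analysis was possible because each genotype has 1 array, and for the same reason no replicate could be left out. The log2 ratios of 8 of the 10 genes kept their sign under all 8 alternatives that change the values, and *Entpd1* (−0.22 to 0.02) and *Nt5e* (−0.02 to 0.05) changed sign under 1 alternative each. The median of the 10 genes ranged from −0.43 to −0.18. None of the 10 was higher under any of 11 alternatives, and 3 were lower except with the Z-score over all probes (1) and with normexp or the 200 nearest probes (2 each, *P2ry2* having Z-scores of −1.40 and −1.87). *P2rx7* moved to −0.06 with the mean of its probes. The offset of 50 in normexp is added to every signal, which by construction draws the ratios of dim probes towards 0. Over all genes, 455 were lower with the Z-score over all probes and 428 with ratio limits of 2 and 0.5, and 340 were higher with those limits and 328 among genes seen on both arrays. None of the other purinergic genes, *Enpp2* included, was lower with the mean of probes, the Z-score over all probes or the limits of 2 and 0.5 (0 each). The cortical neuron median was 1.26 with normexp and 2.14 with genes seen on 1 array set at their limit, and the choroid plexus median was −0.30 both without a filter and among probes seen on both arrays. The causes of these shifts were not tested. The fibroblast median changed sign under 2 alternatives and that of striatal neurons under 1. The median of all genes stayed between −0.07 and 0.04. Removing *Itgam* and *Siglech* from the microglia list was chosen after seeing the data. The signal of *P2ry2* in Cx30 KO mice, 31.3, was below the median of that array (40.9).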

Other observations

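The genes next to the lower receptors were read as well. *Med12l*, a Mediator subunit gene on the opposite strand that overlaps the chromosome 3 receptor cluster, gave 166 in WT and 128 in Cx30 KO mice at its brightest probe (log2 ratio −0.30) and 116 and 107.3 at the next (log2 ratio −0.03). Of its dimmer probes, 2 were well above background in Cx30 KO mice only, with log2 ratios of 0.59 and 1.09 (at least 1.19-fold higher for each), and another in neither pool. *Igsf10*, in the same stretch, had a probe well above background in WT only (log2 ratio −0.90, at least 1.46-fold lower in Cx30 KO mice) and a probe well above background in Cx30 KO mice only. The orphan receptor gene *Gpr171* of the same cluster was not well above background in either pool. Next to *P2rx4* and *P2rx7* on chromosome 5, the 5 probes of *Camkk2*, a calmodulin-dependent kinase kinase, had log2 ratios from −0.31 to 0.05, and those of *Anapc5*, a subunit of the anaphase-promoting complex, had 0.06, 0.18 and 0.20. Next to *P2ry2* and *P2ry6* on chromosome 7, *Arhgef17* had 0.06 and *Fchsd2* had 0.12 at its brightest probe and 0.66 at a dim one.

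Among the microglia markers, *Olfml3*, a secreted protein gene, had probes that disagreed. Its brightest probe gave 1452 in WT and 1727 in Cx30 KO mice (log2 ratio 0.32), and another probe gave 131 in WT and did not stand well above background in the Cx30 KO pool, at least 7.16-fold lower there.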
